A study of Homo sapiens with 8 samples.

Results

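Survivin (BIRC5) and 6 genes that work beside it in mitosis were followed through the 8 libraries of this experiment. The genes were chosen by symbol, with earlier results of these data known. AURKB, INCENP and CDCA8 encode the other subunits of the chromosomal passenger complex, and AURKA, TPX2 and BORA encode the Aurora A kinase and proteins that switch it on or use it. All 7 were found among the 26364 gene rows of the count file and all 7 were among the 14201 genes that had enough counts to be tested.

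The cells were 2 stable clones of LN229, a human glioblastoma line that is proficient for p53 and p21 and does not express MGMT. Clone Surv-GFP (D6) carries Survivin fused to eGFP with a working nuclear export signal (NES), and its fusion protein is mainly cytoplasmic. Clone SurvNESmut-GFP (L2) carries the same fusion with the NES changes L96A and L98A, and its fusion protein is mainly nuclear. Both clones were kept under G418, and each was left untreated or exposed to 50 µM temozolomide (TMZ), a methylating anticancer drug, for 48 h, with 2 libraries (letters a and b) in each of the 4 groups. Each genotype is thus 1 clone, so a difference between clones cannot be told apart from a difference between the export signals. Parental cells were not analysed here.

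In dividing cells the chromosomal passenger complex sits at the inner centromere and then at the spindle midzone, where it corrects faulty attachments of chromosomes and guides cytokinesis. INCENP is the scaffold, Survivin and Borealin (CDCA8) bind near its start and bring the complex to chromatin, and the kinase Aurora B (AURKB) is bound and activated near its end. Aurora A (AURKA) acts at centrosomes and spindle poles, where TPX2 activates it and holds it on microtubules, while BORA helps it to phosphorylate PLK1 before mitotic entry. Transcripts of these genes peak in G2 and mitosis and are repressed when cells arrest through p53 and p21. Survivin is also an inhibitor of apoptosis, and the export receptor CRM1 (XPO1) removes it from the nucleus through the NES.

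The NES changes lie in exon 3 of 4 of BIRC5 transcript BIRC5-202 (GENCODE v29, GRCh38), at chr17:78216707-78216757 on the plus strand for the stretch shown. It is printed because it is the stretch in which the constructs of both clones differ. The unmutated reference sequence of codons 89 to 105 of 142 is given, and capitals mark the codons of leucine 96 and leucine 98.
BIRC5 codons 89 to 105: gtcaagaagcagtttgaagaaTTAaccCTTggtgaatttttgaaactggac
Reads of the fusion transcript and of the endogenous gene fall on the same coding sequence. The BIRC5 counts therefore sum transgene and endogenous transcripts, whereas those of the other 6 genes come from endogenous loci.

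RefSeq promoters (GRCh38.p14) were at hand for 4 of the 7 genes, AURKB, INCENP, CDCA8 and BORA. The 250 bases before each start were searched on both strands for TTTGAA or TTCGAA, the letters of the cell cycle genes homology region through which the MuvB complexes bind, and for CCAAT, the letters bound by NF-Y. Stretches of 30 bases around each match to TTTGAA or TTCGAA are printed because they are what INCENP, CDCA8 and BORA share in sequence, with capitals for either motif.
CDCA8, chr1:37692481-37692510, plus strand: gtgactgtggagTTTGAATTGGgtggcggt
INCENP, chr11:62123981-62124010, plus strand: ggATTGGctgagccttcagtTTTGAAaatc
BORA, chr13:72727734-72727763, plus strand: aggctgcgttgaTTTGAAtttggagccacg
BORA, chr13:72727787-72727816, plus strand: gaggagttgccaTTCGAAtttcctacgcgg
In CDCA8 the match began 23 bases and in INCENP 10 bases before the start, and in BORA the matches began 177 and 124 bases before it. In CDCA8 the last base of TTTGAA is also the first of ATTGG, the reverse complement of CCAAT. Each of the 3 windows also held 2 or 3 matches to CCAAT in either orientation. The AURKB windows held 1 match to CCAAT and none to the other motif. The RefSeq starts of all 4 genes lie inside the genes as GENCODE v29 draws them, those of AURKB (8210225 and 8210249 on chromosome 17) farthest from the outermost GENCODE start (8210600, minus strand). The TTTGAA of CDCA8 and INCENP and the TTCGAA of BORA also lie within these GENCODE bounds. Among all 35116 promoters of this length, 14.3% held TTTGAA or TTCGAA, 32% held CCAAT and 5.05% held both. A match describes the letters and not a bound site.

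The libraries held 15826923 to 18861603 reads on genes, and replicates correlated at r of 0.9939 to 0.9959 on the log2 of CPM, which are counts per 1000000 reads of the TMM-scaled library. The replicates of SurvNESmut-GFP with TMZ stood farthest apart, with a chi-square of 5.74 per gene against 2.203 to 2.66 in the other groups, so all pairs differed by more than sampling noise. VIM, NES, CD44, EGFR, S100B, SOX2 and OLIG2 were expressed, GFAP lay between 0 and 0.921 CPM, and the summed markers of leukocytes, endothelium and epithelium stayed under 1 CPM. SNAP25, listed as a neuronal marker, was present at 8.45 to 19.7 CPM. The study describes biological replicates measured in technical duplicates, and which of these the letters a and b stand for is not said. The p-values therefore measure the spread between these libraries, which may be technical.

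The question for the first 2 comparisons is how TMZ changed these transcripts in each clone. In Surv-GFP cells, BIRC5 (transgene and endogenous reads together) rose 1.75-fold while the other 6 genes fell, AURKA most and TPX2 least. In SurvNESmut-GFP cells all 7 genes fell, again with AURKA in front. In Surv-GFP, 1 of 7 genes was called higher and 6 lower, where 30.1% of all tested genes were higher and 28.9% lower. In SurvNESmut-GFP, 0 were called higher and 7 lower, where 18.6% of all genes were higher and 19.1% lower. At an unadjusted p of 0.05 and with DESeq2 this count of higher genes was also 0. In bulk RNA, a changed share of cells in G2 and mitosis and less RNA of a gene per such cell cannot be told apart. By flow cytometry, the paper reports both clones as comparably arrested in G2 after TMZ. By CENP-F staining, at a later time than here, it reports fewer Surv-GFP cells in G2. The part of these shifts in the RNA changes was not tested. For the 7 genes the median log2 fold change was -0.947 in Surv-GFP, against 0 for all genes, and -0.673 in SurvNESmut-GFP, against 0.00346.

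**Figure D1:**
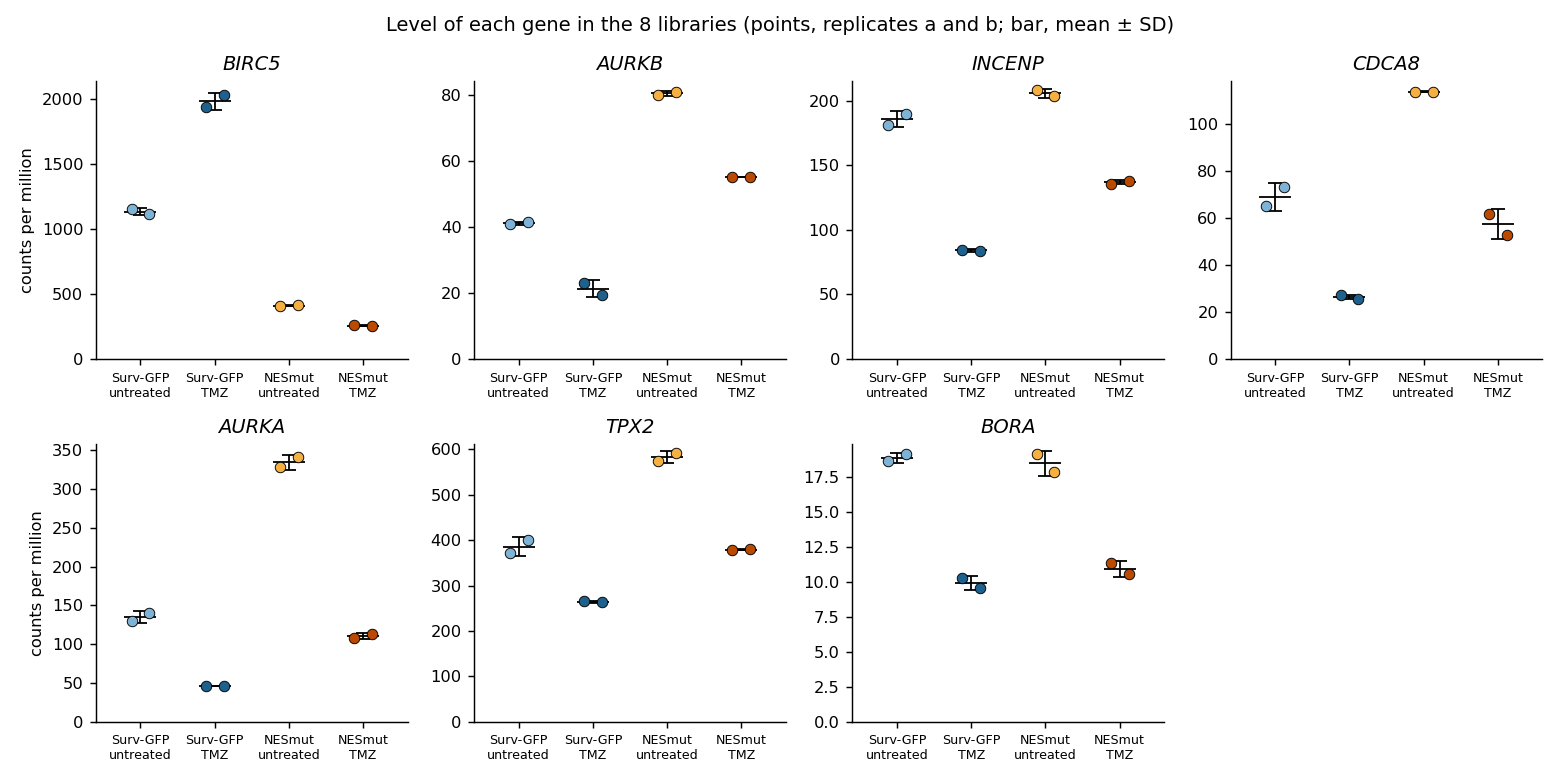
CPM (y axis, linear, from 0) of each gene in the 8 libraries by group (x axis), with points for replicates a and b and bars for mean ± SD, n = 2. BIRC5 stands at 1938 and 2029 in Surv-GFP with TMZ and at 262.4 and 252.6 in SurvNESmut-GFP with TMZ, while the other genes are lower with TMZ in each clone.

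BIRC5 was at 1152 and 1113 CPM in untreated Surv-GFP cells and at 1938 and 2029 CPM after TMZ. In SurvNESmut-GFP cells it was at 407.1 and 414.4 CPM untreated and at 262.4 and 252.6 CPM after TMZ. No group overlapped another, and the order of the groups was Surv-GFP with TMZ, Surv-GFP untreated, SurvNESmut-GFP untreated and SurvNESmut-GFP with TMZ. The log2 fold change after TMZ was 0.81 ± 0.0451 (SE) in Surv-GFP, with an adjusted p of 2.07e-10 in edgeR's quasi-likelihood test (Benjamini-Hochberg over all tested genes, as for every adjusted p here). It was -0.67 ± 0.0466 in SurvNESmut-GFP, with an adjusted p of 1.3e-08. The paper also measured BIRC5 by qPCR, with primers that amplify only the endogenous transcript. By that measure it reports BIRC5 as repressed 48 h after TMZ in LN229 and Surv-GFP cells. The part of transgene reads in the rise seen here was not tested.

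The share of all gene counts taken by BIRC5 shows its weight in the libraries. In Surv-GFP it was 0.1169% and 0.1133% untreated and 0.1951% and 0.2026% with TMZ. For SurvNESmut-GFP the shares were 0.0398% and 0.0405% untreated and 0.0263% and 0.0253% with TMZ. The 95% exact Clopper-Pearson interval of the highest share was 0.2005 to 0.2048% and that of the lowest 0.0246 to 0.0261%, and such intervals cover counting error only. By count, BIRC5 ranked 15 among all genes in each TMZ-exposed Surv-GFP library and 662 and 698 in the TMZ-exposed SurvNESmut-GFP libraries.

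The 3 partners of Survivin fell in both clones. AURKB, the kinase of the complex, was at 40.81 and 41.39 CPM in untreated Surv-GFP and at 23.1 and 19.46 CPM after TMZ, a log2 change of -0.95 ± 0.0761 (adjusted p = 1.9e-08). In SurvNESmut-GFP it was at 80.03 and 80.95 CPM untreated and at 55.29 and 55.22 CPM after TMZ, a log2 change of -0.54 ± 0.0635 (adjusted p = 4.84e-06). The TMZ-exposed SurvNESmut-GFP libraries thus still lay above the untreated Surv-GFP libraries for AURKB.

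INCENP, the scaffold, stood at 181.3 and 189.9 CPM in untreated Surv-GFP and at 84.65 and 83.28 CPM after TMZ. It stood at 207.8 and 203.2 CPM in untreated SurvNESmut-GFP and at 135.6 and 138 CPM after TMZ. The log2 changes were -1.14 ± 0.0496 (adjusted p = 9.05e-12) and -0.59 ± 0.048 (adjusted p = 8.51e-08). Without TMZ the clones lay close together for this gene, and they parted after it.

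CDCA8 (Borealin), which helps Survivin to bind INCENP, was at 64.98 and 73.41 CPM in untreated Surv-GFP and at 27.11 and 25.71 CPM after TMZ. In SurvNESmut-GFP the levels were 113.8 and 113.9 CPM untreated and 61.9 and 53.01 CPM after TMZ. The log2 changes were -1.39 ± 0.0801 (adjusted p = 3.06e-10) and -0.98 ± 0.0705 (adjusted p = 1.86e-08). CDCA8 fell most of the 3 partners in each clone.

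On the Aurora A side, AURKA had the largest change of the 7 genes in each clone. It was at 129.4 and 140.1 CPM in untreated Surv-GFP and at 46.2 and 45.69 CPM after TMZ, and at 327.6 and 340.6 CPM in untreated SurvNESmut-GFP and 108.3 and 113.4 CPM after TMZ. The log2 changes were -1.55 ± 0.058 (2.93-fold lower, adjusted p = 1.44e-12) and -1.59 ± 0.0529 (3.02-fold lower, adjusted p = 3.1e-12). In SurvNESmut-GFP this was rank 8 of all genes by p. Reads can be shared with the processed pseudogene AURKAPS1, which held 13 to 29 counts per library against 796 to 6131 for AURKA.

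TPX2, which activates Aurora A on the spindle, changed least in Surv-GFP. Its levels were 371.3 and 400.1 CPM untreated and 266.2 and 263.2 CPM after TMZ in Surv-GFP, and 573.6 and 592 CPM untreated and 377.8 and 380.1 CPM after TMZ in SurvNESmut-GFP. The log2 changes were -0.54 ± 0.0493 (adjusted p = 8.14e-08) and -0.62 ± 0.0487 (adjusted p = 5.18e-08).

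BORA, the cofactor through which Aurora A reaches PLK1, had the fewest reads of the 7 genes, 166 to 352 per library. It was at 18.59 and 19.1 CPM in untreated Surv-GFP and 10.27 and 9.528 CPM after TMZ, and at 19.09 and 17.84 CPM in untreated SurvNESmut-GFP and 11.34 and 10.53 CPM after TMZ. The log2 changes were -0.93 ± 0.1 (adjusted p = 6.46e-07) and -0.75 ± 0.1 (adjusted p = 1.88e-05). In GENCODE v29, 37% of the exonic bases of BORA (1180 bases) are also exonic in DIS3 on the opposite strand, and no source says whether the libraries kept strand. DIS3 rose by 0.59 ± 0.0539 on the log2 scale in Surv-GFP (adjusted p = 8.67e-08) and had a log2 change of -0.05 ± 0.0554 in SurvNESmut-GFP (adjusted p = 0.514), and its part in the BORA counts was not tested.

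The fall of the 6 partner genes went together with that of the general proliferation markers. Of 10 such markers, 10 fell in Surv-GFP and 10 in SurvNESmut-GFP, where 28.9% and 19.1% of all tested genes did. The median log2 changes of the markers were -1.18 and -0.775, against 0 and 0.00346 for all genes. CCNB1, cyclin B1, fell by 1.79 ± 0.0624 in Surv-GFP and 1.52 ± 0.0595 in SurvNESmut-GFP on the log2 scale. CENPF fell by 1.59 ± 0.0531 and 0.82 ± 0.0518, and CCNA2, cyclin A2, by 1.59 ± 0.061 and 0.71 ± 0.0543, in the same order. The summed level of the 10 markers was 3058 and 3313 CPM in untreated Surv-GFP, 1295 and 1264 CPM after TMZ, 3742 and 3801 CPM in untreated SurvNESmut-GFP and 2242 and 2323 CPM after TMZ.

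**Figure D2:**
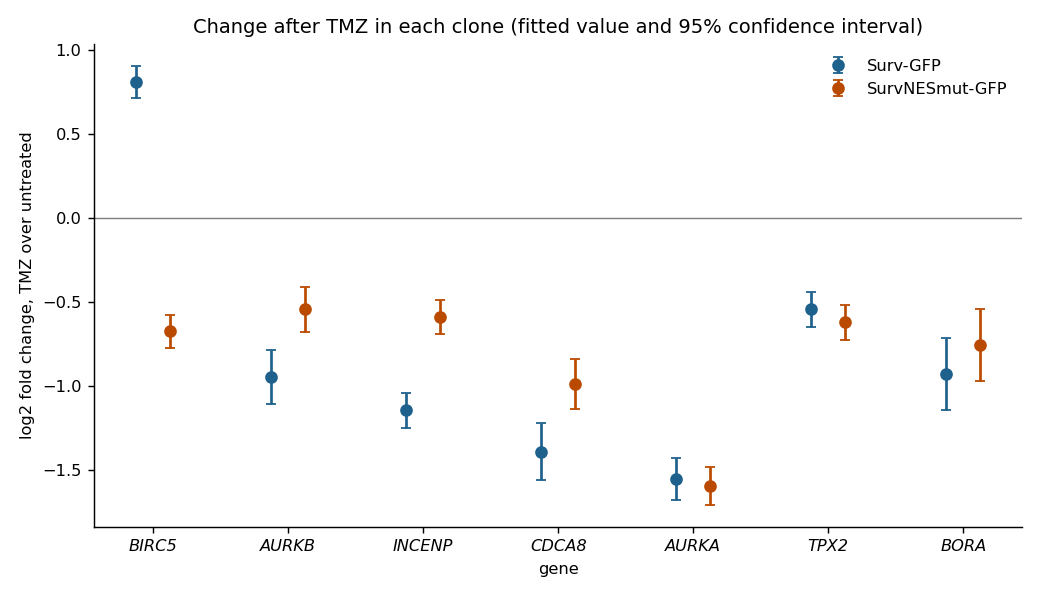
Log2 fold change of TMZ-exposed over untreated cells (y axis) for each gene (x axis) in Surv-GFP (blue) and SurvNESmut-GFP (orange), with the fitted value as point and the 95% confidence interval as bar. BIRC5 is at 0.81 and -0.67 on opposite sides of 0, the intervals of AURKA, TPX2 and BORA overlap between clones, and AURKB, INCENP and CDCA8 lie lower in Surv-GFP.

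Whether the TMZ effects differed between the clones was tested as the difference of the effects, SurvNESmut-GFP minus Surv-GFP. For 3 of the 7 genes the difference was positive, which is a smaller fall in SurvNESmut-GFP, and for 1 it was negative, where 16.6% of all tested genes were called positive and 20.2% negative. The 4 genes were the subunits of the chromosomal passenger complex, and none of the 3 Aurora A genes was called. Whether both sets of genes differ from each other was not tested. Positive differences were not particular to the complex. Of the 10 proliferation markers, 9 were also called positive and 0 negative, with a median difference of 0.526. The difference was -1.48 ± 0.0649 for BIRC5 (adjusted p = 1.06e-10), 0.56 ± 0.0688 for INCENP (adjusted p = 1.08e-05), 0.40 ± 0.0995 for AURKB (adjusted p = 0.00448) and 0.40 ± 0.108 for CDCA8 (adjusted p = 0.00762). Without untreated Surv-GFP replicate b, the difference for CDCA8 was 0.31 with an adjusted p of 0.0549, and over all alternatives this p ranged from 9.61e-05 to 0.0549.

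AURKA fell about as far in either clone, with a difference of -0.04 and a 95% interval of -0.21 to 0.13 (adjusted p = 0.732). For TPX2 the difference was -0.08 with an interval of -0.22 to 0.07 (adjusted p = 0.413). For BORA it was 0.17 with an interval of -0.13 to 0.48 (adjusted p = 0.376), which is too wide to tell it from the differences of AURKB and CDCA8. The interval of AURKA lies below the fitted differences of the 3 passenger complex partners. The median of the 7 differences was 0.173 and that of the 6 genes without BIRC5 was 0.288, against -0.00103 for all genes.

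Ratios of 2 genes within a library do not depend on library size. The log2 ratio of BIRC5 to the mean of its 3 partners was 3.81 ± 0.0975 (SD, n = 2) in untreated Surv-GFP and 5.78 ± 0.129 with TMZ. In SurvNESmut-GFP it was 1.73 ± 0.0219 untreated and 1.77 ± 0.00866 with TMZ. BIRC5, with transgene reads included, and its partners thus moved apart in Surv-GFP by far more than the spread between libraries. In SurvNESmut-GFP they fell by like amounts, with replicate values of 1.718 and 1.749 untreated and 1.761 and 1.773 with TMZ.

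The other ratios describe how the genes shifted among themselves. AURKA over AURKB went from 1.71 ± 0.0666 to 1.12 ± 0.164 in Surv-GFP and from 2.05 ± 0.0281 to 1.004 ± 0.0488 in SurvNESmut-GFP. TPX2 over AURKA rose in each clone, from 1.52 to 2.53 and from 0.80 to 1.77, since AURKA fell far more than its activator. AURKB over INCENP was -2.18 ± 0.0323 and -1.99 ± 0.158 in Surv-GFP and -1.35 ± 0.0347 and -1.31 ± 0.0191 in SurvNESmut-GFP. Kinase and scaffold thus kept nearly the same ratio through TMZ while the clones differed. This did not hold for CDCA8 over INCENP, which fell from -1.43 ± 0.0775 to -1.67 ± 0.0374 in Surv-GFP. In SurvNESmut-GFP it fell from -0.85 ± 0.0239 to -1.26 ± 0.176. BORA over AURKA rose from -2.84 to -2.22 in Surv-GFP and from -4.18 to -3.34 in SurvNESmut-GFP. No test was made on the ratios, as with 2 libraries against 2 an exact permutation test cannot go below a two-sided p of 0.333.

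**Figure D3:**
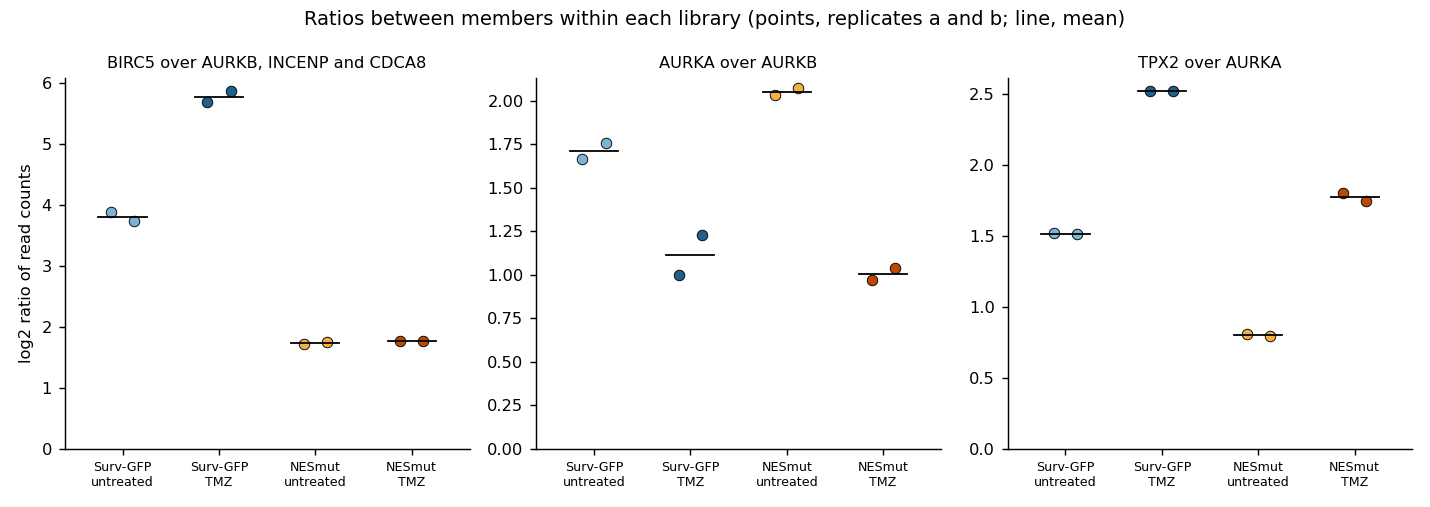
Log2 ratios of read counts (y axes) within each library by group (x axes), with points for replicates a and b and lines for the mean. BIRC5 over its partners rises from 3.81 to 5.78 with TMZ in Surv-GFP and is 1.73 and 1.77 in SurvNESmut-GFP, and AURKA over AURKB falls in each clone.

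The clones were then compared with each other (SurvNESmut-GFP minus Surv-GFP), without and with TMZ. BIRC5 was lower in SurvNESmut-GFP, 2.76-fold without TMZ and 7.70-fold with it, and the other genes apart from BORA were higher. Without TMZ, 5 of 7 genes were called higher and 1 lower, where 34.7% of all genes were higher and 29.4% lower. With TMZ, 5 were called higher and 1 lower, where 34.5% were higher and 34.7% lower. The median of the 7 genes was 0.595 without and 0.704 with TMZ, against 0.0336 and -0.000527 for all genes. Both comparisons share libraries with the TMZ effects above.

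For BIRC5 the log2 clone difference was -1.46 ± 0.0463 without TMZ (adjusted p = 1.33e-13) and -2.95 ± 0.0489 with TMZ (adjusted p = 1.48e-16), the latter at rank 3 of all genes by p. AURKA was 2.48-fold higher in SurvNESmut-GFP without TMZ (log2 difference 1.31 ± 0.0518, adjusted p = 1.98e-12) and 2.41-fold higher with it (1.27 ± 0.0589, adjusted p = 1.42e-11). The AURKB difference was 0.97 ± 0.0649 and 1.37 ± 0.0743, that of CDCA8 0.72 ± 0.0684 and 1.12 ± 0.0823, and that of TPX2 0.60 ± 0.0486 and 0.52 ± 0.0494, with adjusted p between 8.59e-11 and 1.13e-07. All libraries of these 4 genes, and also those of INCENP, lay higher in SurvNESmut-GFP than in Surv-GFP under the same exposure. The share of all genes without such overlap was not counted, so this does not set these genes apart from others.

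INCENP had the smallest called difference of the 7 genes between the untreated clones, at 0.15 ± 0.047 (adjusted p = 0.0118) that lost its call in 8 of 16 alternatives, among them library size alone (0.09, adjusted p = 0.108) and DESeq2 (adjusted p = 0.0887). Over these alternatives its adjusted p ranged from 0.0118 to 0.124. The libraries whose omission ended the call were untreated Surv-GFP a (0.12, adjusted p = 0.124), Surv-GFP with TMZ a and b (0.11 for each) and untreated SurvNESmut-GFP a (0.13). With TMZ the INCENP difference was 0.70 ± 0.0504 (adjusted p = 2.78e-09). For BORA no clone difference passed the test, at -0.03 (95% interval -0.22 to 0.16, adjusted p = 0.792) without TMZ, where the groups overlapped, and 0.14 (-0.09 to 0.38, adjusted p = 0.26) with TMZ, where they did not.

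Levels can be set between genes only per length, here as CPM per kb of exonic bases in GENCODE v29, which may not be the annotation the counts were made with. BIRC5 was left out, since the fusion transcript does not hold the whole gene. In untreated Surv-GFP the order of means was TPX2 at 107, AURKA at 46, INCENP at 41.5, CDCA8 at 28, AURKB at 18.3 and BORA at 5.91 CPM per kb, with no overlap of neighbours. In untreated SurvNESmut-GFP it was TPX2 at 162, AURKA at 114, CDCA8 at 46.1, INCENP at 45.9, AURKB at 35.9 and BORA at 5.79, and CDCA8 and INCENP did not differ beyond their spread.

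After TMZ the order changed. In Surv-GFP it was TPX2 at 73.4, INCENP at 18.8, AURKA at 15.7, CDCA8 at 10.7, AURKB at 9.5 and BORA at 3.1 CPM per kb, so AURKA passed below INCENP. CDCA8 (10.41 and 10.98) and AURKB (8.684 and 10.31) were no farther apart than the AURKB libraries from each other. In SurvNESmut-GFP it was TPX2 at 105, AURKA at 37.9, INCENP at 30.6, AURKB at 24.7, CDCA8 at 23.3 and BORA at 3.43, and AURKB and CDCA8 overlapped. TPX2 was the most abundant of the 6 and BORA the least in every group.

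AURKC, the Aurora kinase of germ cells, can replace AURKB in the complex. It held 7 and 12 counts in untreated Surv-GFP, 3 and 6 after TMZ, 1 and 5 in untreated SurvNESmut-GFP and 3 and 8 after TMZ, too few to be tested.

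Lists of genes around the complex and its regulation were then read, without a test of the lists themselves. Their counts stand beside the shares over all tested genes given above, which for higher and lower genes are 30.1% and 28.9% (TMZ effect in Surv-GFP), 18.6% and 19.1% (TMZ effect in SurvNESmut-GFP), and 16.6% and 20.2% (difference of the effects). Among 10 genes that bring the passenger complex to centromeres and midzone, 7 fell after TMZ in each clone, and none rose. For each list count of 0 given here, edgeR at an unadjusted p of 0.05 and DESeq2 also gave 0. KIF20A, the kinesin that carries the complex to the midzone, was at 211.5 and 218.7 CPM in untreated Surv-GFP and 21.66 and 21.87 CPM after TMZ, and at 294 and 283.8 CPM in untreated SurvNESmut-GFP and 65.29 and 67.57 CPM after TMZ. Its log2 changes were -3.31 ± 0.058 and -2.12 ± 0.0509, and their difference was 1.18 ± 0.0777 (adjusted p = 1.01e-08). BUB1, the kinase whose histone mark recruits the complex, fell by 1.61 and 1.18 on the log2 scale, and TTK, the spindle checkpoint kinase MPS1, had a difference of 0.52 ± 0.089 (adjusted p = 0.000254). The difference of the effects was positive for 5 of the 10 genes and negative for 1, the deubiquitinase USP9X, named after its values were seen, at -0.25 ± 0.0692 (adjusted p = 0.00905).

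Among 15 substrates of Aurora B and cytokinesis genes, 14 fell and 1 rose in Surv-GFP, and 13 fell and 1 rose in SurvNESmut-GFP. KNL1, a kinetochore scaffold that Aurora B phosphorylates, was at 68.93 and 75.12 CPM untreated and 33.05 and 32.6 CPM after TMZ in Surv-GFP, against 120.6 and 122.1 CPM and 85.92 and 84.53 CPM in SurvNESmut-GFP. The difference of its effects was 0.62 ± 0.0801 (adjusted p = 1.59e-05), and that of ANLN, the contractile ring protein anillin, was 0.54 ± 0.0736 (adjusted p = 2.98e-05). PRC1, the midzone bundling protein, fell by 1.04 ± 0.0612 and 0.88 ± 0.0579 on the log2 scale in Surv-GFP and the other clone, and its difference of 0.17 ± 0.0838 did not pass the test (adjusted p = 0.136). In all, 10 of the 15 differences were called positive and 0 negative. The gene that rose, named after its values were seen, was CHMP4C, the abscission checkpoint substrate of Aurora B, by 1.58 ± 0.27 in Surv-GFP (adjusted p = 9.39e-05) and 0.98 ± 0.176 in SurvNESmut-GFP (adjusted p = 0.00034). Its counts were low, at 18 and 37 untreated and 99 and 64 after TMZ in Surv-GFP. In SurvNESmut-GFP they were 112 and 99 untreated and 199 and 179 after TMZ.

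Among 16 cofactors and neighbours of Aurora A at the spindle, 10 fell and 4 rose in Surv-GFP, and 9 fell and 3 rose in SurvNESmut-GFP. PLK1, the kinase that BORA and Aurora A activate, was at 132.2 and 131.4 CPM in untreated Surv-GFP and 23.1 and 22.56 CPM after TMZ, and at 205.4 and 202.6 CPM and then 54.48 and 48.85 CPM in SurvNESmut-GFP. It fell by 2.53 and 1.98 on the log2 scale, further than AURKA in each clone. AJUBA, a LIM protein that binds Aurora A, rose in both clones, from 26.55 and 25.17 CPM to 55.08 and 48.21 CPM in Surv-GFP and from 71.09 and 67.67 CPM to 242.9 and 181.1 CPM in SurvNESmut-GFP. The log2 changes were 0.999 ± 0.123 (adjusted p = 2.8e-06) and 1.61 ± 0.0992 (adjusted p = 3.41e-09). Of the 16 differences 9 were called positive and 3 negative, with TACC3, an Aurora A substrate on spindle microtubules, at 0.61 ± 0.093 (adjusted p = 8.73e-05) and the spindle kinesin KIF11 at 0.49 ± 0.0743 (adjusted p = 8.78e-05).

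Of 12 genes of the APC/C, the ubiquitin ligase that marks both Aurora kinases for destruction as cells leave mitosis, 5 fell and 1 rose in Surv-GFP, and 5 fell and 2 rose in SurvNESmut-GFP. CDC20, its mitotic activator, was at 170.5 and 180.3 CPM untreated and 60.1 and 60.27 CPM after TMZ in Surv-GFP, and at 263.5 and 259.2 CPM and then 121.9 and 110.9 CPM in SurvNESmut-GFP. It fell by 1.54 and 1.17 on the log2 scale. For the difference, 2 of 12 genes were called positive and 2 negative, near the shares of all genes, with FBXO5, the inhibitor EMI1, at 0.63 ± 0.121 (adjusted p = 0.00071).

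**Figure D4:**
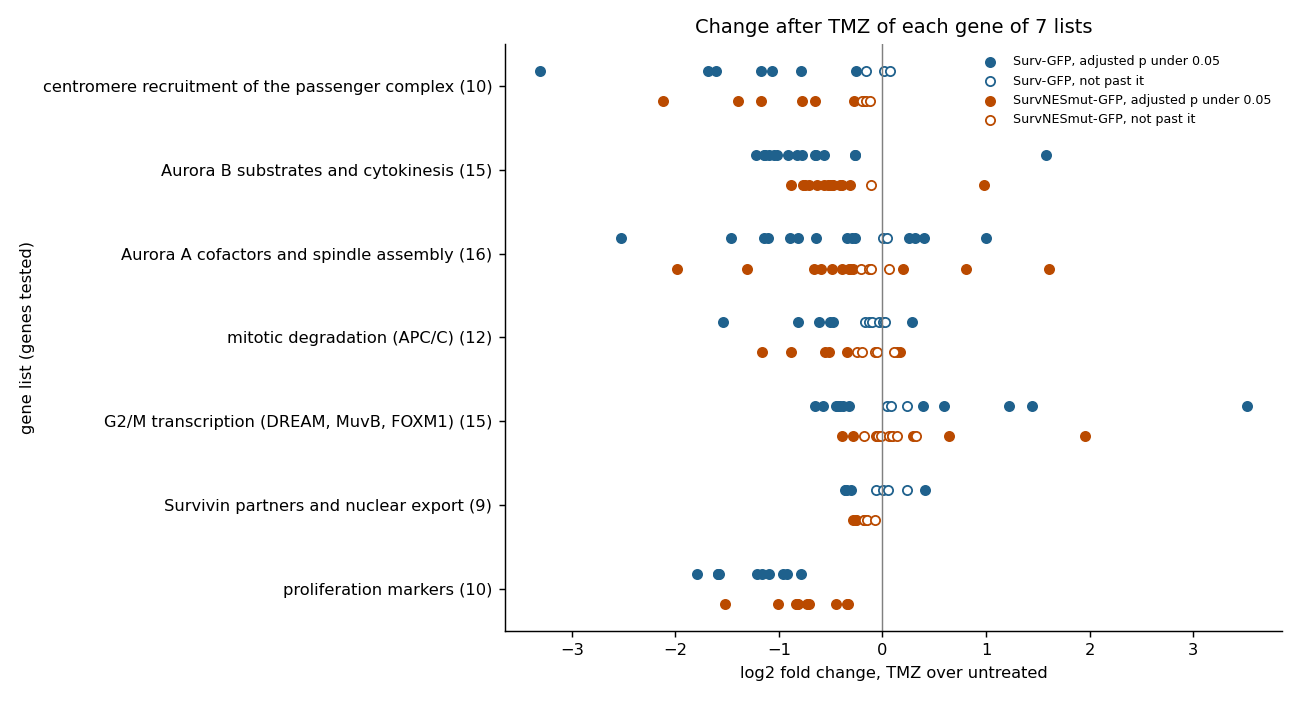
Log2 fold change of TMZ-exposed over untreated cells (x axis) for each tested gene of 7 lists (y axis), with Surv-GFP in blue and SurvNESmut-GFP in orange, filled where the adjusted p is under 0.05. All 10 proliferation markers lie below 0 in each clone, and CDKN1A lies farthest right at 3.52 and 1.96 in the list of G2/M transcription.

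Transcription of G2 and mitosis genes is held down by DREAM, a complex of MuvB proteins with RB-like pocket proteins that forms when p21 is high. CDKN1A, which encodes p21, was at 86.6 and 77.27 CPM in untreated Surv-GFP and 907.6 and 975.2 CPM after TMZ, and at 117.4 and 119 CPM in untreated SurvNESmut-GFP and 428.7 and 491.8 CPM after TMZ. It rose by 3.52 ± 0.0727 and 1.96 ± 0.0688 on the log2 scale (adjusted p = 1.02e-15 and 4.23e-12). The difference of the effects was -1.56 ± 0.0962 (adjusted p = 5.06e-09), a smaller rise in SurvNESmut-GFP. In that clone INCENP, AURKB and CDCA8 fell less, while AURKA, TPX2 and BORA had no called difference. A link between CDKN1A and these genes was not tested.

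Of the 15 genes in the list of G2/M transcription, 5 rose and 7 fell in Surv-GFP, and 3 rose and 2 fell in SurvNESmut-GFP. The genes that rose in each clone and those that fell in SurvNESmut-GFP are near the shares of all genes. Without SurvNESmut-GFP with TMZ replicate b, the calls in SurvNESmut-GFP numbered 8. E2F7, a repressive E2F factor, rose by 1.44 ± 0.0649 and 0.64 ± 0.0595, with a difference of -0.80 ± 0.0883 (adjusted p = 3.28e-06). FOXM1, an activator of the mitotic genes that was picked out after its values were seen, fell by 0.43 ± 0.0524 in Surv-GFP (adjusted p = 2.45e-06) and had a log2 change of -0.05 ± 0.0507 in SurvNESmut-GFP (adjusted p = 0.424), and the difference was 0.38 ± 0.0728 (adjusted p = 0.000707).

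A further list held 9 partners of Survivin and genes of its export machinery. XPO1 (CRM1) was at 406.7 and 431.9 CPM in untreated Surv-GFP, 338 and 343.1 CPM after TMZ, 525.1 and 518.3 CPM in untreated SurvNESmut-GFP and 458.4 and 466.8 CPM after TMZ. It fell by 0.30 ± 0.047 in Surv-GFP (adjusted p = 3.91e-05) and by 0.17 ± 0.0467 in SurvNESmut-GFP (adjusted p = 0.00775), and the difference of 0.13 ± 0.0662 did not pass the test (adjusted p = 0.15). XIAP, which Survivin binds and stabilises, rose by 0.41 ± 0.0545 in Surv-GFP (adjusted p = 7.56e-06), and its difference was -0.55 ± 0.0787 (adjusted p = 4.38e-05). HSP90AB1, a chaperone of Survivin, fell by 0.35 ± 0.0473 and 0.26 ± 0.0473. In the list 1 gene rose and 4 fell in Surv-GFP, where 30.1% and 28.9% of all genes did, and 0 rose and 6 fell in SurvNESmut-GFP, where 18.6% and 19.1% did. The latter became 3 calls without untreated SurvNESmut-GFP replicate a. The 2 called differences, of XIAP and the initiator caspase gene CASP9, became 1 without untreated Surv-GFP replicate b, Surv-GFP with TMZ replicate a or b, or untreated SurvNESmut-GFP replicate a, and with DESeq2.

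Between the clones without TMZ, 13 of the 15 Aurora B and cytokinesis genes, 10 of the 16 Aurora A cofactors, 10 of the 12 APC/C genes, 10 of the 15 genes of G2/M transcription, 8 of the 10 proliferation markers and 5 of the 10 recruitment genes were higher in SurvNESmut-GFP, where 34.7% of all genes were. With TMZ these counts were 14, 10, 8, 9, 10 and 6, where 34.5% of all genes were. Without TMZ, 3 Aurora A cofactors and 1 gene each of the APC/C, G2/M and recruitment lists were lower, where 29.4% of all genes were. With TMZ, 4 Aurora A cofactors, 1 APC/C gene and 3 genes of G2/M transcription were lower, where 34.7% of all genes were. Of the 9 Survivin partners and export genes, 4 were higher without TMZ, and 5 were higher and 1 lower with it. Summed proliferation markers did not overlap between the clones in either state. The higher AURKB, CDCA8, AURKA and TPX2 levels of SurvNESmut-GFP thus came together with higher levels of many other mitotic genes. The part of cell cycle distribution in them was not tested.

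The genes most like BIRC5 and AURKB in their pattern were named by Pearson's r of log2 CPM over the 8 libraries, which form 4 groups, so that many genes reach a high r. For BIRC5 they were BZW1 (r = 0.9987), KIAA0513 (0.9979), KIF16B (0.9972), DDX5 (0.9967) and SRPRB (0.9958), and 401 of 14194 genes had r over 0.95. KIAA0513, for example, was at 55.06 and 52.16 CPM in untreated Surv-GFP, 72.94 and 75.07 CPM after TMZ, 28.3 and 26.67 CPM in untreated SurvNESmut-GFP and 22.15 and 22 CPM after TMZ, the same order of groups as BIRC5 over a narrower range. For AURKB they were KIF23 (0.9979), SPAG5 (0.9976), FBN2 (0.9973), PDHB (0.9965) and DYRK2 (0.9955), and 514 genes had r over 0.95. KIF23, the central spindle kinesin, was at 71.75 and 79.59, 37.43 and 33.12, 176.4 and 181.5, and 115.3 and 116 CPM in the same order of groups. No mitotic gene from the lists was among the 5 nearest to BIRC5, whose counts include the transgene. So few of the 14194 genes cannot speak to its regulation.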

How the data were processed

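RNA of 2 LN229 clones, untreated or exposed to TMZ, was sequenced in 8 libraries, which were grouped by their sample labels. The deposited count file holds the authors' whole-number read counts per gene symbol, not normalized, with 2 rows that name no gene (11.25 to 14.34% of reads without a feature and 1.193 to 1.283% ambiguous) that were left out. The submitters' processing notes name STAR 2.5.0b, Cufflinks 2.2.1 and edgeR. The sources used here name no counting program, annotation or build. The authors' 5 comparison tables hold their log2 fold changes, log CPM, F statistics, p-values and FDR and were not used.

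Counts were analysed with edgeR 4.0.16 in R 4.3.3. The quasi-likelihood F test in its older form was run in 1 model with 4 group means after TMM scaling and filterByExpr, and SE was derived from the F statistic. Adjusted p is Benjamini-Hochberg over 14201 genes with a threshold of 0.05. CPM use TMM-scaled library sizes. The fits were tested on simulated data. Between 166 and 36242 reads per library lay on each of the 7 genes. The members and lists were chosen with earlier results of these data known. From each list were named those with the smallest p in the difference of effects and in each TMZ effect, together with AURKC, CDKN1A and XPO1, and for BIRC5 and AURKB the 5 genes with the highest r. Sequences come from RefSeq (GRCh38.p14) and GENCODE v29. Alternatives were DESeq2 1.42.0, its size factors or library size alone, no filter or 1 CPM in 2 libraries, edgeR's newer quasi-likelihood method, the letter as a model term, the compared groups alone, and leaving out each library in turn. The result of 1 cell type marker is not reported here.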

Additional observations from a re-analysis of the deposited data

Results flagged for a closer look

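The TMZ effect differed between the clones, by the test of the difference itself, for 4 of the 7 genes, with BIRC5 at -1.48, AURKB at 0.40, INCENP at 0.56 and CDCA8 at 0.40 (SurvNESmut-GFP minus Surv-GFP, log2 scale). For BIRC5, whose counts include the transgene, the effects had opposite signs, and for the other 3 the fall was smaller in SurvNESmut-GFP. Among the other genes named it also differed for KIF20A (1.18), BUB1 (0.43), TTK (0.52), KNL1 (0.62), ANLN (0.54), PLK1 (0.55), TACC3 (0.61), KIF11 (0.49), CDC20 (0.38), CCNB1 (0.27), CCNA2 (0.88) and CENPF (0.77), which fell in both clones and less in SurvNESmut-GFP. It was also positive for FBXO5 (0.63) and FOXM1 (0.38), whose falls passed the test only in Surv-GFP, and for AJUBA (0.61), which rose in both clones. It was negative for CDKN1A (-1.56), E2F7 (-0.80), DIS3 (-0.64), XIAP (-0.55), CASP9 (-0.42) and USP9X (-0.25). All adjusted p lay between 1.06e-10 (BIRC5) and 0.0328 (CASP9).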

How the results depend on the processing

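Over the alternatives, 540 of 553 recomputed log2 fold changes of the 7 genes kept their direction and their side of the threshold, 9 kept the direction and lost the call, and 4 changed sign. Those 4 were results without a call. The AURKA difference of effects became 0.016 with library size alone, 0.0058 with a filter of 1 CPM in 2 libraries and 0.012 without untreated Surv-GFP replicate a (from -0.10 to 0.012 over the libraries left out in turn, adjusted p over all alternatives 0.415 to 0.999). The BORA clone difference became 0.022 without untreated SurvNESmut-GFP replicate b (from -0.077 to 0.022 over the libraries left out, adjusted p over all alternatives 0.43 to 0.963). The lost calls were INCENP between untreated clones and CDCA8 in the difference, given above, and the cause was not tested. All 7 genes kept their call in each TMZ effect under every alternative run. Of 553 counts of called list genes, 546 stayed within 1.5 times the reported one. With the replicate block (the letter as a term) 8203, 5179, 5074, 8971 and 9722 genes were called in the 5 comparisons, against 8371, 5367, 5226, 9106 and 9830 without it, and no call of the 7 genes changed. Deviations of same-lettered libraries correlated at -0.0671 to 0.0832 between groups, so no effect common to a letter was seen over all genes. An effect on few genes could not be seen this way. No scaling moved the median of all genes by over 0.1, but with library size alone the share of higher genes among those called went from 49.3 to 58.3% in the TMZ effect of SurvNESmut-GFP and from 45.1 to 54.9% in the difference, so the shares of all genes printed above hold for TMM. Each group has 2 libraries of 1 clone, and differences as small as those of TPX2 or BORA are limited by this.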
